A study of Mus musculus with 36 samples.

Results

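Forkhead genes encode transcription factors that share a winged-helix DNA-binding domain. They were taken here as all mouse genes whose symbol is Fox followed by a letter from a to s, a number and at most 1 further letter, with pseudogenes and antisense transcripts left out. Of 45232 genes counted, 44 met that rule. The libraries came from primary mouse prostate organoids, 3-dimensional epithelial cultures, infected with pCW constructs whose expression doxycycline at 500 ng/mL induces. Polyadenylated RNA of 36 libraries was sequenced, 3 for each of 12 groups. The 3 tested constructs carried wild-type FOXA1 (WT), the FOXA1 variant FE255del or the FOXA1 variant R219S as a FOXA1-2A-DsRED fusion, and the control (EV) was an empty pCW construct that the labels call an empty vehicle. Each construct was collected at day 0, day 1 and day 11. The labels do not say what the days count from, and that day 0 organoids had no doxycycline is given by the names of the deposited tables alone. Sorted dsRED+ cells of each infected construct had been seeded in triplicate and processed separately from then on, so p-values measure the spread between cultures of 1 sorted population per construct.

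Forkhead factors differ in how they act and where. FOXA proteins are pioneer factors that bind nucleosomal DNA and, in the prostate, open sites for other transcription factors. FOXO proteins are held in the cytoplasm when AKT phosphorylates them, FOXM1 drives genes of late cell cycle stages, FOXJ1 switches on the genes of motile cilia, and FOXP and FOXK proteins largely repress transcription. FOXF, FOXL, FOXD and FOXC genes are best known from mesenchyme.

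Start-site regions of 3 members are shown, chosen after their values were seen. Foxa1 and Foxc1 hold a match to a loose forkhead motif, and Foxn1, with wide day 1 falls, does not. Foxj2, Foxj3, Foxn3 and Foxp4, which like these 3 passed in every construct at day 1, held no match. Foxk1, Foxo6 and Foxq1 also passed in every construct at day 1, and no region is described for them here. Under some other processing settings the calls of Foxj2 and Foxn3 in WT and of Foxj3 and Foxo6 in R219S were lost. Each region is the 250 bases before the RefSeq start in GRCm38.p6, read along the gene. Capitals mark each match to TNTTTAC, a loose form of the forkhead motif that allows any second base, searched on both strands. On the matched strand the Foxa1 match reads TGTTTAC and the Foxc1 match TTTTTAC. Foxa1 and Foxc1 held 1 match each, both on the strand opposite the gene and so printed in reverse complement, and Foxn1 held none. Over windows of 300 bases, 4062 of 32851 in the RefSeq table (12.4%) held a match, against 2 of the 33 windows of forkhead genes, which covered 28 members. The regions are chr12:57546112-57546361 for Foxa1 (minus strand), chr13:31806396-31806645 for Foxc1 (plus strand) and chr11:78386609-78386858 for Foxn1 (minus strand).
Foxa1: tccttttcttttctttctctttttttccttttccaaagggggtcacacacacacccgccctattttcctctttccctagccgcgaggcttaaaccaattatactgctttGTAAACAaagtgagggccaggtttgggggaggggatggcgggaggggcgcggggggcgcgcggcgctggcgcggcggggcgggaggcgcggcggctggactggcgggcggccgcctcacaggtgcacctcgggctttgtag
Foxc1: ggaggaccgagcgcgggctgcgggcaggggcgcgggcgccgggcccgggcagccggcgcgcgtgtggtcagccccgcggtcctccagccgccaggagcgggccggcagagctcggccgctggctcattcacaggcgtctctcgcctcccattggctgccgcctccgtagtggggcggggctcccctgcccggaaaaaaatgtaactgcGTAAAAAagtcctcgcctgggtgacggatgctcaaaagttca
Foxn1: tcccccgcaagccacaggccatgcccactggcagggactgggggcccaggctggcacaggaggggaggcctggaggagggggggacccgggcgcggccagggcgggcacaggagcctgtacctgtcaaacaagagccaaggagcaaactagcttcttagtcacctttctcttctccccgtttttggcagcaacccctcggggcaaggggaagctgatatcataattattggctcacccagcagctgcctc

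Of the 44 members, 26 had enough counts to be tested, 11 had few counts and 7 (Foxb1, Foxb2, Foxd3, Foxi2, Foxi3, Foxr2 and Foxs1) had none in any library. Foxa2, Foxl1 and Foxp2 had enough counts only through groups where they were high, and Foxi1 only through EV, where it was high. Their p-values and their place among the 26 are conditional on that and give no independent support. Library totals ran between 61476938 and 102385337 counts over all genes. Levels are CPM, counts scaled to each library's total after adjustment by the trimmed mean of M values, and genes are set beside each other only per kilobase of exon. On that per-kilobase scale Foxa1 had the highest mean over the 12 groups, at 82.23 CPM per kb, with group means between 68.15 and 124.5. Foxp4 followed at 25.71, Foxq1 at 24.57, Foxk2 at 23.39 and Foxj1 at 20.9 CPM per kb. These 4 overlapped one another in the range of their group means, so their order is not fixed. Foxj1 spread the widest of the members above 1 CPM per kb, with its highest group mean 141.5 times its lowest, and Foxn1 was next at 30.91 times. Foxn2, a little-studied repressor-type member, spread the least, with a ratio of 1.349. All forkhead genes together summed to group means between 1303 CPM (R219S, day 1) and 1836 CPM (FE255del, day 1).

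**Figure D1:**
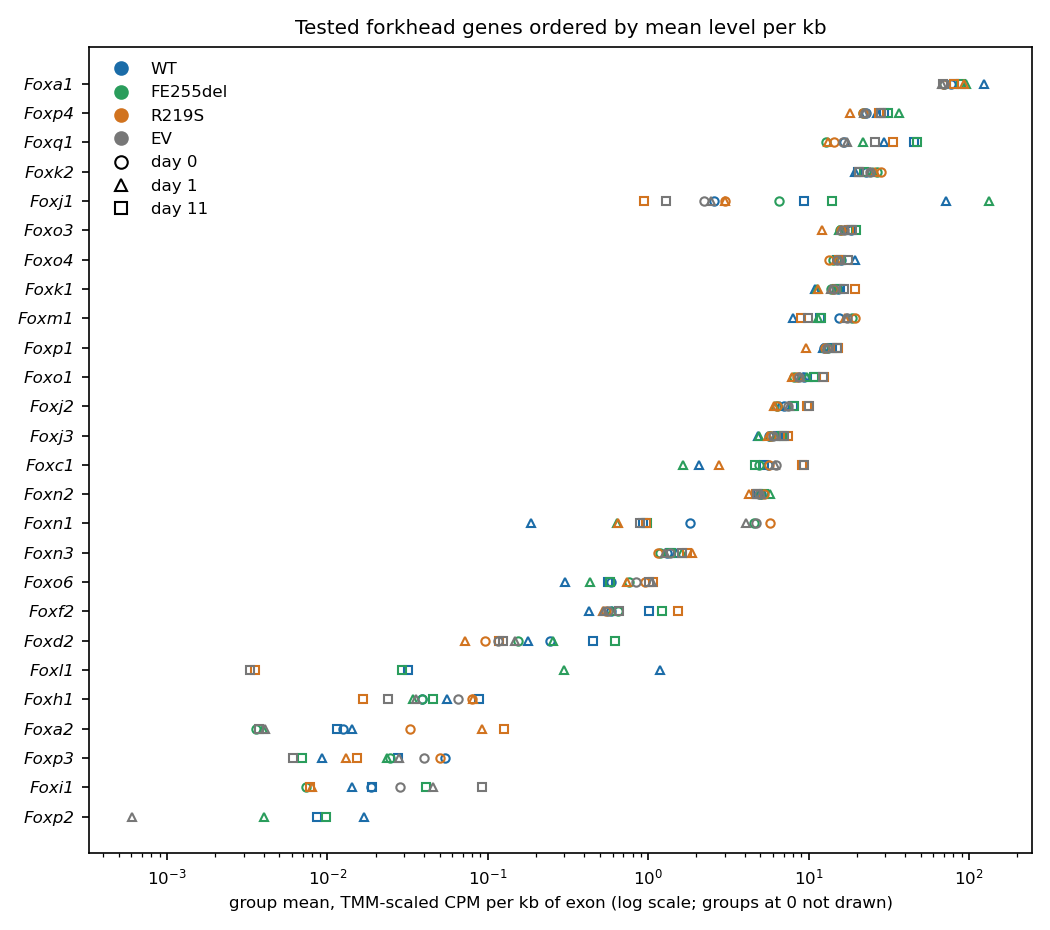
Group means of the 26 tested forkhead genes in CPM per kilobase of exon, on a log axis, with 1 point per group and genes ordered by their mean over the 12 groups; groups at 0 are not drawn. Foxa1 has the highest mean over the groups, Foxn2 has the narrowest spread, and Foxj1 spans group means between 0.9433 and 133.5 CPM per kb, the last (FE255del, day 1) above the highest of Foxa1, 124.5.

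Fold changes are log2 values with standard errors from edgeR's quasi-likelihood test, and adjusted p-values are Benjamini-Hochberg values over the 18176 genes tested. Constructs compared with EV on the same day share its 3 libraries. Against EV at day 1, 16 of 26 forkhead genes differed in WT organoids, beside 60.5% of all genes tested. In FE255del organoids 17 of 26 differed, beside 53.2%, and in R219S organoids 17 of 26, beside 48.5%. At day 11 the counts were 19 of 26 in WT (40.6% of all genes), 17 of 26 in FE255del (42.2%) and 8 of 26 in R219S (32.1%). Fitted with the compared groups alone, the day 11 counts were 12, 11 and 5. At day 0, 4 of 26 differed in WT, beside 22.7% of all genes. In FE255del 4 differed, beside 20.8%, and in R219S 7, beside 20.1%. The change since day 0 beside that of EV is therefore given where it bears on a gene. The WT count at day 0 was 2 when EV replicate 2, EV replicate 3, WT replicate 2 or WT replicate 3 was left out, and the R219S count was 3 without EV replicate 2. The median log2 fold change of the family at day 1 was 0.02 in WT, -0.01 in FE255del and -0.26 in R219S, beside -0.01, -0.03 and -0.04 over all genes.

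**Figure D2:**
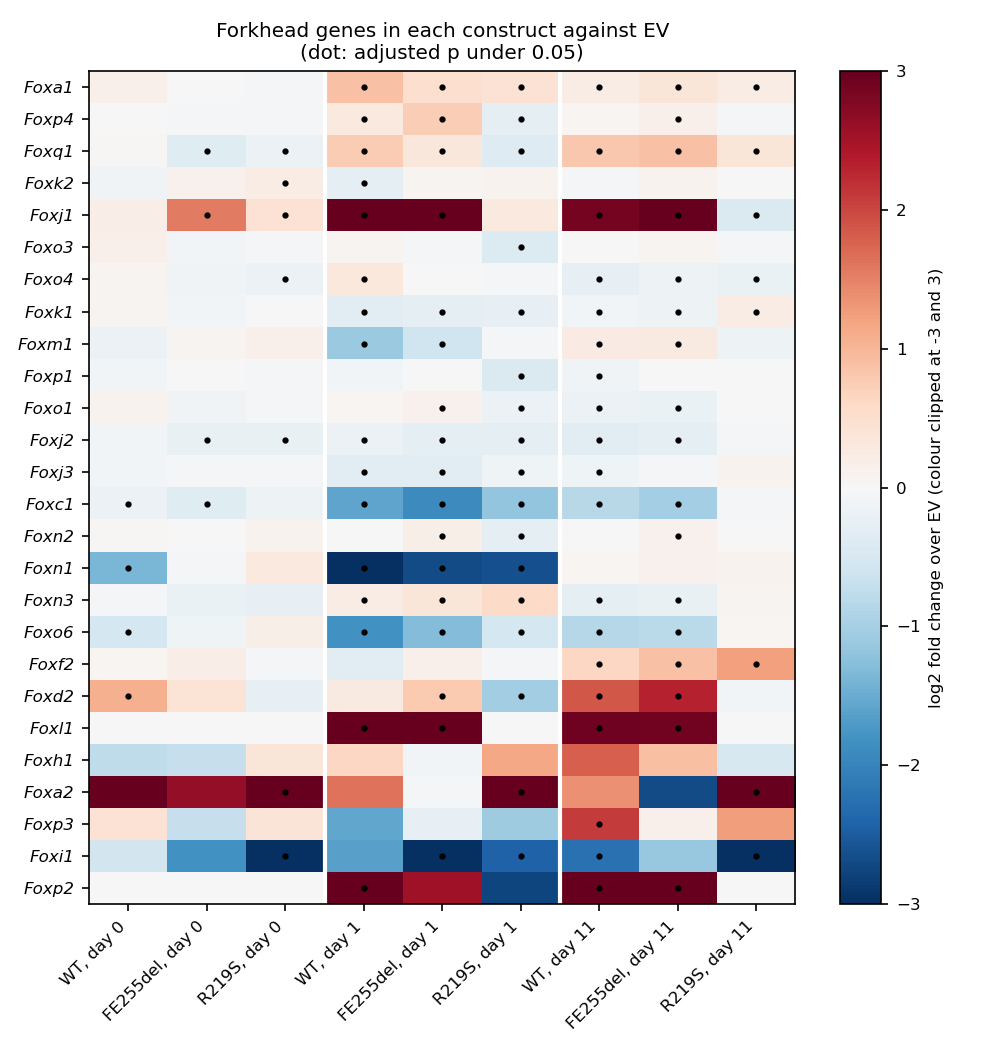
Log2 fold change over EV of the 26 tested forkhead genes in WT, FE255del and R219S organoids on each day, as colour clipped at -3 and 3, with a dot where the adjusted p is under 0.05; where 1 group has no counts the fitted value depends on the prior count. Foxj1 and Foxl1 are high in WT and FE255del at day 1, Foxn1 and Foxc1 are low in all 3 constructs at day 1, and at day 0 Foxj1 in FE255del and Foxn1 in WT stand out, while the strong colours of Foxa2, Foxi1 and Foxp2 rest on few counts.

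Among the FOXA genes, Foxa1 (chr12:57540628-57546916, minus strand) rose in every construct at day 1, most in WT. Its level at day 1 was 420, 413 and 410.2 CPM in WT libraries, 326, 344 and 291 CPM in FE255del and 312, 303 and 311 CPM in R219S, against 227, 232 and 222 CPM in EV. Every library of the 3 constructs lay above every EV library, and the variants lay below WT. Log2 fold changes over EV were 0.87 ± 0.06 in WT (adjusted p = 9.3e-15), 0.50 ± 0.06 in FE255del (8.5e-09) and 0.44 ± 0.06 in R219S (1.0e-07). Reads of the inserted FOXA1, if counted, cannot be told apart here from those of the resident gene. At day 11 the levels were 280.2, 273 and 253 CPM in WT, 303, 316 and 266 CPM in FE255del and 263, 242 and 301 CPM in R219S, against 217, 233 and 241 CPM in EV. The day 11 groups lay closer to EV than at day 1, but still without overlap. The log2 fold changes were 0.22 ± 0.06 in WT (adjusted p = 0.0027), 0.36 ± 0.06 in FE255del (6.7e-06) and 0.22 ± 0.06 in R219S (0.0036). The R219S value at day 11 fell to 0.13 (adjusted p = 0.086) without R219S replicate 3, and had an adjusted p of 0.085 when EV and R219S at day 11 were fitted alone. At day 0 every WT library lay above every EV library, with a value of 0.14 ± 0.06 that did not pass (adjusted p = 0.090), and neither variant passed. Set beside the EV change, WT organoids changed in Foxa1 between day 0 and day 11 by 0.08 ± 0.08 (adjusted p = 0.58). The same value was 0.35 ± 0.08 in FE255del (0.0019) and 0.25 ± 0.08 in R219S (0.027). The R219S change lost its call under total-count scaling and without EV replicate 1 or 3 at day 0, EV replicate 1 at day 11, R219S replicate 2 at day 0 or R219S replicate 3 at day 11 (adjusted p between 0.051 and 0.15).

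Foxa2 and Foxa3, the other FOXA genes, best known from endoderm and liver, were near the floor of detection. Foxa2 had 0.198, 0.211 and 0.245 CPM in R219S libraries at day 1 and 0.295, 0.303 and 0.304 CPM at day 11, while no library of WT, FE255del or EV on any day passed 0.062 CPM. At day 1 and day 11 the R219S libraries therefore lay apart from all libraries of the other constructs, at 14 to 22 counts each. At day 0 they had 0.0675, 0.104 and 0.0605 CPM, and WT replicate 2 of that day had 0.0619 CPM. R219S held 47 counts at day 1 against 2 in EV, a ratio of 22.3 with a 95% exact interval between 5.85 and 190 for counting error (adjusted p = 0.00017). It held 65 against 2 counts at day 11, a ratio of 32.1 (8.52 to 270.3; adjusted p = 4.8e-05), and 18 against 0 at day 0, at least 5.603-fold higher by a floor of 3 counts over the 3 EV libraries (adjusted p = 0.0059). The change of Foxa2 in R219S since day 0, beside that of EV, did not pass at day 1 or at day 11. Foxa2 did not differ from EV in WT or FE255del on any day. It reached the test only through the R219S libraries of day 1 and day 11. Foxa3 had too few counts to test, with 115 in all libraries: WT held 27 and FE255del 22 at day 1, R219S 4 and EV 4.

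FOXA partners and the Groucho-type co-repressors that FOXA proteins recruit were described as a list of 18 genes, 16 of them tested. At day 1, 8 were higher and 4 lower in WT, 7 and 7 in FE255del and 5 and 8 in R219S. Of all genes, 60.5%, 53.2% and 48.5% were called in either direction. List medians were 0.29, 0.14 and -0.25 on the log2 scale, beside all-gene medians of -0.01, -0.03 and -0.04. Tle4, a Groucho-type co-repressor, rose in all 3, by 1.99 ± 0.09 in WT, 1.5 ± 0.08 in FE255del and 1.33 ± 0.08 in R219S. Spdef, an ETS factor of secretory epithelium, rose by 5.92 ± 0.29 in WT and 8.33 ± 0.27 in FE255del, whereas in R219S its value was -0.41 ± 0.62 (adjusted p = 0.62). Set directly against WT at day 1, R219S had 1 list gene higher and 14 lower, beside 30.5% and 29.1% of all genes.

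Foxj1 (chr11:116330704-116335399, minus strand), the master regulator of motile cilia, showed the widest differences of the members above 1 CPM per kb. At day 0 it had 6.42, 6.53 and 7.17 CPM in WT libraries, 15.7, 17.8 and 17.8 CPM in FE255del and 8.80, 7.32 and 7.60 CPM in R219S, against 5.57, 5.91 and 6.004 CPM in EV. At day 1 it had 176, 200.5 and 189 CPM in WT, 354, 351 and 346 CPM in FE255del and 8.21, 7.58 and 8.06 CPM in R219S, against 6.14, 6.27 and 7.05 CPM in EV. FE255del stood above the other constructs already at day 0, and at day 1 WT and FE255del lay far above R219S and EV, whose libraries did not overlap but lay close. In WT and FE255del at day 1, Foxj1 made up 19.33% and 32.4% of all forkhead CPM per kb, against 0.987% in EV. The day 1 means were 29.0 times EV in WT, a log2 fold change of 4.86 ± 0.13 (adjusted p = 9.8e-23), and 54.0 times EV in FE255del, 5.75 ± 0.13 (8.4e-24). In R219S the log2 value was 0.29 ± 0.13 and did not pass (adjusted p = 0.071).

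The FE255del level at day 1 was 0.90 ± 0.10 above that of WT on the log2 scale (adjusted p = 4.4e-08), and R219S was 4.56 ± 0.13 below WT (2.5e-22). FE255del had started 1.55 ± 0.13 above EV at day 0 (adjusted p = 7.4e-10), and the day 1 change since day 0, beside that of EV, was 4.65 ± 0.19 in WT and 4.21 ± 0.18 in FE255del (6.5e-18 and 4.4e-17). In R219S that change was -0.14 ± 0.19 (adjusted p = 0.63). The R219S excess over EV at day 0, 0.43 ± 0.14 (adjusted p = 0.023), lost its call without EV replicate 1 (0.40, adjusted p = 0.081), EV replicate 2 (0.44, 0.066) or R219S replicate 1 (0.36, 0.094). The same call was also lost with no filter on low counts (0.42, adjusted p = 0.051).

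At day 11 Foxj1 had 25, 22.4 and 26.8 CPM in WT libraries, 32.4, 39.0 and 39.2 CPM in FE255del and 3.28, 1.69 and 2.46 CPM in R219S, against 3.26, 2.59 and 4.28 CPM in EV. WT and FE255del were above every EV library but below their own day 1 levels, and R219S overlapped EV. Log2 fold changes over EV were 2.88 ± 0.14 in WT (adjusted p = 2.8e-16) and 3.45 ± 0.13 in FE255del (3.1e-18), and FE255del exceeded WT by 0.58 ± 0.11 (0.00029). The R219S value of -0.43 ± 0.17 (adjusted p = 0.048) lost its call without EV replicate 1, EV replicate 3, R219S replicate 2 or R219S replicate 3, where the adjusted p lay between 0.075 and 0.33. It was also lost with no filter on low counts (0.064), with halved counts (0.055) and when EV and R219S at day 11 were fitted alone (0.24). The R219S change at day 11 since day 0, beside that of EV, was -0.87 ± 0.22 (adjusted p = 0.0029) and passed under every alternative tried.

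Motile cilium genes, the known targets of FOXJ1, were described as a list of 25, of which 16 had enough counts to be tested. At day 1, 11 were higher and none lower in WT and 12 higher and none lower in FE255del, with medians of 2.54 and 2.03 on the log2 scale beside -0.01 and -0.03 over all genes. At day 1, 14 list genes averaged under 0.1 CPM in EV and 7 in FE255del. Genes near 0 in EV could be tested only where another group held more counts, so these counts and medians lean upward. In R219S 3 were higher and 2 lower, and 60.5%, 53.2% and 48.5% of all genes were called in the 3 constructs. Levels stayed low: Drc1, a dynein regulatory complex gene, averaged 1.34 ± 0.23 CPM in WT and 12.9 ± 1.45 CPM in FE255del, against 0.103 ± 0.040 CPM in EV (SD, n = 3 each). It rose by 3.68 ± 0.36 in WT and 6.95 ± 0.35 in FE255del. Cfap126, a ciliary gene also called Flattop, rose by 3.40 ± 0.22 and 3.94 ± 0.22, and Rsph9, a radial spoke gene, by 2.52 ± 0.18 and 1.88 ± 0.18. Rsph9 also rose in R219S, by 1.02 ± 0.19. Dnah11, an outer-arm dynein heavy chain, rose in all 3 constructs, by 3.58 ± 0.35 in WT, 4.82 ± 0.35 in FE255del and 5.16 ± 0.34 in R219S. At day 11, 8 cilium genes were higher and 2 lower in WT, and 10 were higher and none lower in FE255del. In R219S none were higher and 1 lower, and 40.6%, 42.2% and 32.1% of all genes were called in the 3 constructs.

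**Figure D3:**
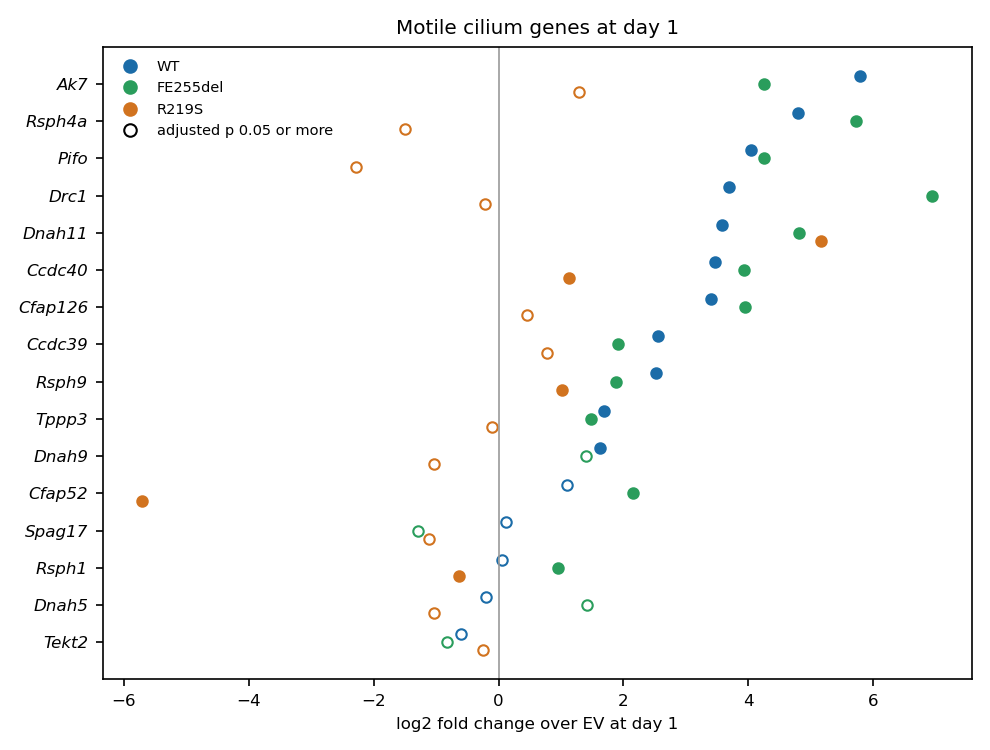
Log2 fold change over EV at day 1 of the 16 tested motile cilium genes in WT, FE255del and R219S organoids, with open symbols where the adjusted p is 0.05 or more; Cfap52 in R219S is a fitted value with no counts in R219S. Most genes lie to the right of 0 in WT and FE255del, with Drc1 at 3.68 and 6.95, and Dnah11 is also at 5.16 in R219S.

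Regulators that act with or above FOXJ1 in multiciliated cells moved in both directions. Of 12 on the list 10 were tested, and at day 1, 3 were higher and 5 lower in WT, 4 and 2 in FE255del, and none and 5 in R219S. That is 8, 6 and 5 of 10 genes, beside 60.5%, 53.2% and 48.5% of all genes. Rfx3, a partner of FOXJ1 on ciliary promoters, averaged 77.1 ± 0.96 CPM in WT and 62.6 ± 0.44 CPM in FE255del, against 39.2 ± 1.86 CPM in EV (SD, n = 3 each), which are log2 fold changes of 0.98 ± 0.05 and 0.67 ± 0.05. In R219S it averaged 38.6 ± 0.87 CPM. Trp73, which lies upstream of Foxj1 in airway cells of mice, went the other way, with log2 fold changes of -2.43 in WT, -2.44 in FE255del and -0.73 in R219S. Mcidas, the switch that commits cells to many cilia, rose in WT and FE255del but only to 0.262 ± 0.020 CPM and 0.245 ± 0.029 CPM.

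Foxl1 (chr8:121127940-121130644, plus strand), a gene of gut and other mesenchyme, had no count at day 0 and few at day 11. At day 1 it had 3.15, 3.58 and 2.89 CPM in WT libraries and 0.762, 0.711 and 0.957 CPM in FE255del, with no count in any R219S or EV library. WT held 760 counts and FE255del 174, so WT was at least 218.5-fold higher than EV (adjusted p = 7.1e-11) and FE255del at least 55.0-fold (2.4e-08). FE255del was 1.98 ± 0.37 on the log2 scale below WT (adjusted p = 0.00013), and R219S was at least 229.9-fold below WT. Foxl1 reached the test only through the WT and FE255del libraries of day 1. At day 11 WT and FE255del held 18 counts each, against 2 in EV (adjusted p = 0.016 in both). Those day 11 calls were lost without EV replicate 2 or EV replicate 3 in both constructs, without WT replicate 2 or WT replicate 3 in WT and without FE255del replicate 1 in FE255del (adjusted p between 0.054 and 0.088). Its neighbours on chromosome 8, Foxf1 and Foxc2, had only 48 and 10 counts over all libraries and were not tested.

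**Figure D4:**
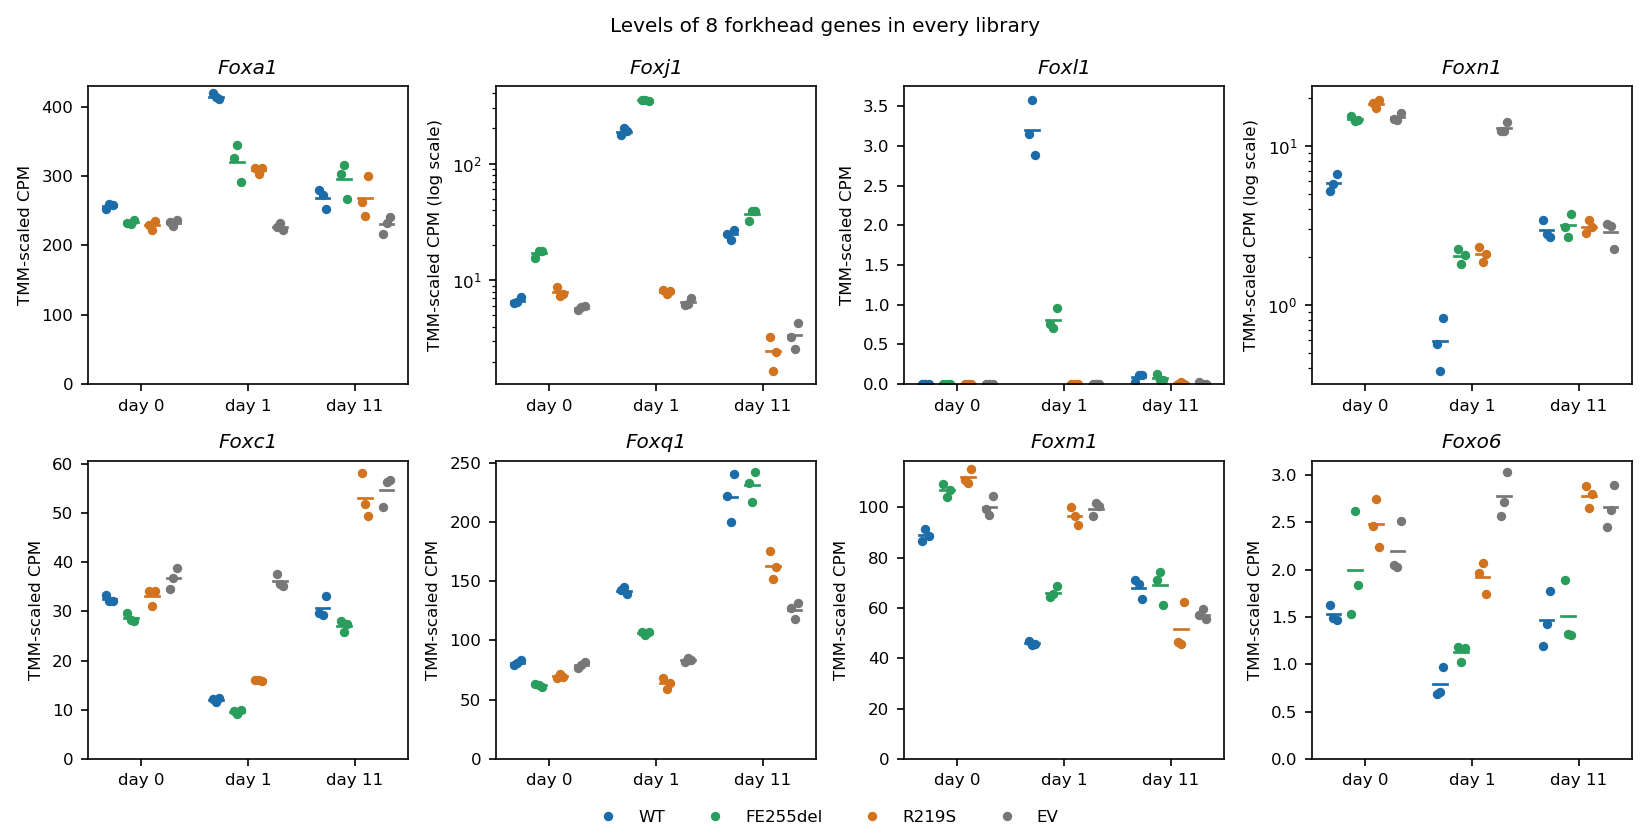
CPM of Foxa1, Foxj1, Foxl1, Foxn1, Foxc1, Foxq1, Foxm1 and Foxo6 in every library, by day and construct, with a point per library and a bar at the mean of 3; the axes of Foxj1 and Foxn1 are logarithmic. Foxj1 at day 1 lies between 346 and 354 CPM in FE255del, Foxl1 has counts at day 1 in WT and FE255del libraries only, and Foxn1 is lowest in WT at day 1.

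Foxc1, Foxq1 and Foxf2 lie within 1 stretch of chromosome 13 and did not move together. Foxc1 (chr13:31806633-31812476, plus strand), known from eye and vessel development and from hair follicle stem cells, fell in all constructs at day 1. It had 12.2, 11.6 and 12.4 CPM in WT libraries, 9.80, 9.04 and 10.03 CPM in FE255del and 16.1, 16.1 and 15.9 CPM in R219S, against 37.6, 35.6 and 35.2 CPM in EV. The 4 groups did not overlap, and each variant lay on its own side of WT. Log2 fold changes over EV were -1.58 ± 0.06 in WT (adjusted p = 1.3e-21), -1.91 ± 0.06 in FE255del (2.9e-23) and -1.17 ± 0.06 in R219S (7.5e-18). R219S exceeded WT by 0.41 ± 0.06 (adjusted p = 6.7e-07). At day 11 the levels were 29.7, 29.3 and 33.2 CPM in WT, 28.1, 25.7 and 27.5 CPM in FE255del and 58.2, 51.9 and 49.3 CPM in R219S, against 51.3, 56.4 and 56.7 CPM in EV. WT and FE255del remained below every EV library, at -0.83 ± 0.06 (adjusted p = 5.8e-14) and -1.02 ± 0.06 (3.2e-16), and R219S overlapped EV, at -0.04 ± 0.06 (0.63). At day 0 FE255del was already below EV, at -0.36 ± 0.06 (adjusted p = 3.0e-05), and the change in FE255del at day 1 since day 0, beside that of EV, was -1.55 ± 0.09 (1.5e-16).

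Foxq1 (chr13:31556134-31560976, plus strand), the gene of the satin hair mutation in mice, moved in opposite directions at day 1. It had 142, 145 and 139 CPM in WT libraries, 107, 104 and 107 CPM in FE255del and 68.0, 58.9 and 64.3 CPM in R219S, against 81.4, 85.1 and 83.8 CPM in EV. WT and FE255del lay above and R219S below every EV library, at log2 fold changes of 0.77 ± 0.06 (adjusted p = 3.3e-14), 0.35 ± 0.06 (2.1e-06) and -0.39 ± 0.06 (3.7e-07). At day 11 all 3 constructs lay above EV, with 222, 200.4 and 241 CPM in WT, 233, 217 and 243 CPM in FE255del and 176, 152 and 162 CPM in R219S, against 128, 118 and 132 CPM in EV. The log2 fold changes at day 11 were 0.81 ± 0.06, 0.87 ± 0.06 and 0.37 ± 0.06 (adjusted p = 3.0e-14, 3.6e-15 and 1.4e-06). FE255del was below EV at day 0, at -0.35 ± 0.06 (adjusted p = 1.8e-05), and its day 11 change since day 0, beside that of EV, was 1.23. R219S was also below EV at day 0, at -0.19 ± 0.06 (adjusted p = 0.016), a call lost without EV replicate 2 or 3 or R219S replicate 1 or 3 (0.056 to 0.072). The changes at day 1 since day 0, beside that of EV, were 0.73 ± 0.08 in WT and 0.70 ± 0.08 in FE255del (adjusted p = 1.2e-09 and 4.9e-09). In R219S the change of -0.20 ± 0.08 (adjusted p = 0.040) lost its call under 15 alternatives (0.050 to 0.32), among them both other scalings, DESeq2 and leaving out EV replicate 1 or 2 or R219S replicate 2 or 3 at day 0, or replicate 2 or 3 of EV or R219S at day 1. An antisense transcript, A530084C06Rik, overlaps 3200 of the 4843 exon bases of Foxq1, and the strand setting of the counting is not given in the sources used here.

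Foxf2 (chr13:31625816-31631403, plus strand), a mesenchymal gene, differed from EV at day 11 only. Its level was 1.95, 2.34 and 2.87 CPM in WT libraries, 3.11, 2.60 and 2.87 CPM in FE255del and 3.57, 3.36 and 3.98 CPM in R219S, against 1.65, 1.52 and 1.51 CPM in EV. All 9 libraries of the constructs exceeded the EV libraries, and R219S lay highest. The log2 fold changes were 0.61 ± 0.17 in WT (adjusted p = 0.0037), 0.88 ± 0.17 in FE255del (5.5e-05) and 1.22 ± 0.17 in R219S (3.4e-07), and R219S exceeded WT by 0.61 ± 0.16 (0.0020). The change at day 11 since day 0, beside that of EV, was 0.56 ± 0.25 in WT (adjusted p = 0.11) and 1.27 ± 0.24 in R219S (0.00014). In FE255del it was 0.68 ± 0.24 (adjusted p = 0.044), a call lost with no filter on low counts, without any 1 of EV replicates 2 and 3 or the FE255del replicates at day 0, and without any 1 of the EV replicates or FE255del replicates 1 and 3 at day 11 (0.052 to 0.11). The 11 stromal and fibroblast markers summed at day 11 to 42.6 ± 1.13 CPM in WT, 17.0 ± 3.07 CPM in FE255del and 71.7 ± 8.71 CPM in R219S, against 22.95 ± 7.64 CPM in EV (SD, n = 3 each). The FE255del sums, 14.65 to 20.47 CPM, overlapped those of EV, 17.73 to 31.72 CPM, although Foxf2 was higher in FE255del. Between 4 and 6 of the 11 markers were under 0.1 CPM in each group. Of these markers Col1a2 had no count in any day 11 library, Thy1 was at or near 0, and Lum averaged 0.664 CPM in R219S and was at or near 0 in the other groups. Their part in the result was not tested. In bulk RNA, fewer cells of a type and less RNA per cell cannot be told apart.

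Foxd2 (chr4:114906282-114908873, minus strand), a kidney and facial mesenchyme gene, was likewise higher at day 11 in WT and FE255del but not in R219S. Its level was 1.17, 1.10 and 1.24 CPM in WT libraries, 1.67, 1.35 and 1.81 CPM in FE255del and 0.348, 0.202 and 0.359 CPM in R219S, against 0.186, 0.320 and 0.468 CPM in EV. WT and FE255del stood clear of EV, and R219S lay within the range of EV. The log2 fold changes were 1.86 ± 0.32 in WT (adjusted p = 1.1e-05) and 2.32 ± 0.32 in FE255del (2.1e-07), against -0.08 ± 0.35 in R219S (0.90). R219S was 1.94 ± 0.32 below WT (adjusted p = 4.4e-06). The change of Foxd2 since day 0 beside that of EV passed in FE255del, at 1.90 ± 0.47 (0.0028), and not in WT, at 0.78 ± 0.47 (0.27). WT was already called higher at day 0, a call lost without EV replicate 2 (adjusted p = 0.056) or WT replicate 3 (0.14). At day 1 FE255del was called higher and R219S lower. Both day 1 calls were lost under some alternatives (0.051 to 0.29 in FE255del and 0.050 to 0.17 in R219S).

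Hedgehog pathway genes, which lie upstream of FOXF and FOXL genes in mesenchyme, were few and mixed. Of 11 on the list 8 were tested, and at day 1, 3 were higher and 2 lower in WT, 2 and 1 in FE255del and 3 and 1 in R219S. That is 5, 3 and 4 of 8 genes, beside 60.5%, 53.2% and 48.5% of all genes. Gli1, a target gene that reports pathway activity, averaged 0.114 ± 0.072 CPM in WT and 0.0645 ± 0.013 CPM in FE255del at day 1, against 0.406 ± 0.13 CPM in EV (SD, n = 3 each), which are falls of 1.82 and 2.62 on the log2 scale.

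Foxn1 (chr11:78357577-78386558, minus strand), the gene mutated in nude mice and known from thymic epithelium and hair keratinocytes, fell in all constructs at day 1. It had 0.573, 0.388 and 0.830 CPM in WT libraries, 2.26, 1.81 and 2.06 CPM in FE255del and 2.33, 1.86 and 2.08 CPM in R219S, against 12.4, 12.5 and 14.2 CPM in EV. WT was lowest, and FE255del and R219S overlapped each other. Log2 fold changes over EV were -4.44 ± 0.17 in WT (adjusted p = 7.3e-22), -2.67 ± 0.15 in FE255del (2.3e-17) and -2.64 ± 0.15 in R219S (4.6e-17). FE255del exceeded WT by 1.77 ± 0.18 (adjusted p = 9.9e-10) and R219S exceeded it by 1.80 ± 0.18 (1.8e-10).

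The WT organoids were already low in Foxn1 at day 0, with 5.18, 5.77 and 6.66 CPM, beside 15.5, 14.3 and 14.5 CPM in FE255del and 18.5, 17.2 and 19.6 CPM in R219S, against 14.7, 14.5 and 16.1 CPM in EV. WT libraries lay below and R219S libraries above every EV library at that time. WT passed, at -1.36 ± 0.13 (adjusted p = 8.1e-10), and R219S did not, at 0.29 ± 0.13 (0.11). The change at day 1 since day 0, beside that of EV, was -3.08 ± 0.22 in WT, -2.64 ± 0.19 in FE255del and -2.93 ± 0.19 in R219S (adjusted p = 4.5e-14, 1.8e-13 and 1.7e-14). At day 11 all 12 libraries lay between 2.26 and 3.73 CPM, and no construct differed from EV (adjusted p between 0.50 and 0.84). The change since day 0 beside that of EV was 1.41 ± 0.20 in WT at day 11 (adjusted p = 1.3e-06), where the day 0 level was low. EV itself had fallen by then, by 2.39 ± 0.14 on the log2 scale since day 0 (adjusted p = 2.2e-15).

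Markers of basal epithelium were also lower at day 1, where Foxn1 and Foxc1 were low. All 10 genes on the basal list were lower in WT and in FE255del, and 7 were lower and 1 higher in R219S. Summed, the list stood at 3613 ± 74.2 CPM in WT, 2293 ± 90.3 CPM in FE255del and 6085 ± 79.6 CPM in R219S, against 9998 ± 362 CPM in EV (SD, n = 3 each). None of the 10 was at 0. At day 0, 5 were lower in WT, 9 in FE255del and 4 in R219S, with sums of 7741 ± 305 CPM, 7335 ± 209.7 CPM and 9339 ± 224 CPM, against 9689 ± 76.9 CPM in EV. Of all genes, 22.7%, 20.8% and 20.1% were called in either direction at day 0. In EV at day 11, where Foxn1 had fallen, 7 of the 10 were higher than at day 0, with a sum of 12350 ± 421 CPM. Of all genes, 47.6% were called in either direction between these 2 days in EV. Of the luminal list of 11, 10 were tested. At day 1, 3 were higher and 5 lower in WT, 3 and 5 in FE255del and 2 and 8 in R219S. The shares of all genes called that day in either direction were 60.5%, 53.2% and 48.5%. The luminal list summed to 5828 ± 84.8 CPM in WT, 6323 ± 138 CPM in FE255del and 7545 ± 111 CPM in R219S, against 6406 ± 175 CPM in EV. Pbsn, the probasin gene, was at 0 in every library. Their part in the result was not tested.

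Foxm1 (chr6:128362967-128376146, plus strand), which drives genes of the G2 and M phases, fell in WT and FE255del at day 1 and stayed level with EV in R219S. It had 46.9, 45.1 and 45.7 CPM in WT libraries, 64.2, 65.6 and 68.6 CPM in FE255del and 100.3, 96.5 and 93.1 CPM in R219S, against 96.4, 101.7 and 100.4 CPM in EV. WT was below FE255del, both were below EV, and R219S overlapped EV. The log2 fold changes were -1.11 ± 0.07 in WT (adjusted p = 6.8e-15), -0.59 ± 0.07 in FE255del (1.8e-08) and -0.04 ± 0.07 in R219S (0.66). R219S exceeded WT by 1.07 ± 0.07 (adjusted p = 2.1e-14). At day 11 the order turned: 71.2, 69.7 and 63.5 CPM in WT, 71.1, 74.4 and 61.3 CPM in FE255del and 46.7, 45.9 and 62.3 CPM in R219S, against 57.1, 59.5 and 55.6 CPM in EV. WT and FE255del were higher than EV by 0.25 ± 0.07 (adjusted p = 0.0058) and 0.27 ± 0.07 (0.0031), and R219S, with replicate 3 above EV and the other libraries below, did not pass (-0.15 ± 0.07, 0.11). EV had fallen by 0.80 ± 0.07 between day 0 and day 11 (adjusted p = 6.7e-11). Set beside that fall, WT changed by 0.42 ± 0.10 (adjusted p = 0.0023) and FE255del by 0.17 ± 0.10 (0.27). R219S changed by -0.31 ± 0.10 (adjusted p = 0.020), a call lost with the compared groups alone and without EV replicate 2 at day 0 or day 11 or R219S replicate 1 or 2 at day 11 (0.052 to 0.15).

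FOXM1 target genes were lower than EV in all 3 constructs at day 1. All 26 on the list were tested, and at day 1 all 26 were lower in WT and in FE255del, with medians of -1.02 and -0.58 beside -0.01 and -0.03 over all genes. In R219S, where Foxm1 itself did not pass, 25 of 26 were lower, with a median of -0.40 beside -0.04. That count was 23 of 26 under each of 2 other scalings of the libraries. Of all genes, 60.5%, 53.2% and 48.5% were called in either direction at day 1 in WT, FE255del and R219S. Plk1, the mitotic kinase, averaged 56.6 ± 1.74 CPM in WT, 83.6 ± 1.60 CPM in FE255del and 95.8 ± 4.33 CPM in R219S, against 137 ± 7.11 CPM in EV (SD, n = 3 each). Cdc25b, a phosphatase that activates mitotic kinases, fell by 1.58 ± 0.05 in WT, 0.98 ± 0.05 in FE255del and 0.76 ± 0.05 in R219S. At day 11, 17 targets were higher and 1 lower in WT, 25 higher and 1 lower in FE255del, and none higher and 14 lower in R219S (22 when scaled by total counts). The all-gene shares at day 11 were 40.6%, 42.2% and 32.1%. At day 0, 10 targets were lower in WT, 7 were higher and 1 lower in FE255del, and 21 were higher in R219S (13 under total-count scaling). The all-gene shares at day 0 were 22.7%, 20.8% and 20.1%. Counted as the change at day 11 since day 0 beside that of EV, 23 were higher and none lower in WT, 3 and none in FE255del, and none and 26 in R219S. For that change 21.4%, 20.5% and 27.1% of all genes were called in either direction. In EV all 26 fell between day 0 and day 11, with a median log2 change of -1.06, and 47.6% of all genes were called in either direction.

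FOXO genes, which act downstream of insulin and AKT signalling, moved little except for Foxo6. Foxo6 (chr4:120267079-120287349, minus strand), best known from the brain, had 0.685, 0.710 and 0.968 CPM in WT libraries at day 1, 1.19, 1.03 and 1.17 CPM in FE255del and 1.96, 2.07 and 1.74 CPM in R219S, against 2.57, 2.72 and 3.04 CPM in EV. The groups ran in that order with no overlap. Log2 fold changes over EV were -1.81 ± 0.19 in WT (adjusted p = 1.6e-10) and -1.30 ± 0.18 in FE255del (1.6e-07). The R219S value, -0.53 ± 0.17 (adjusted p = 0.011), lost its call without EV replicate 3 (-0.46, 0.053) or R219S replicate 3 (-0.46, 0.056). At day 11 Foxo6 had 1.19, 1.43 and 1.77 CPM in WT, 1.89, 1.32 and 1.31 CPM in FE255del and 2.89, 2.65 and 2.80 CPM in R219S, against 2.46, 2.63 and 2.90 CPM in EV. WT and FE255del lay below EV, at -0.86 ± 0.18 (adjusted p = 0.00013) and -0.82 ± 0.18 (0.00024), and R219S within its range. At day 0 WT was already lower, at -0.52 ± 0.18 (adjusted p = 0.029), a call lost without EV replicate 3, WT replicate 2 or WT replicate 3 (0.083 to 0.15). The change at day 11 since day 0, beside that of EV, was -0.34 ± 0.25 in WT (adjusted p = 0.39) and -0.68 ± 0.25 in FE255del (0.047). The FE255del change lost its call under 12 alternatives (adjusted p between 0.051 and 0.26), among them both other scalings, the replicate block and leaving out EV replicate 1 or 2 or FE255del replicate 2 at day 0, or replicate 2 or 3 of EV or FE255del at day 11.

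The other FOXO genes differed by at most 0.50 on the log2 scale in the comparisons that passed. Foxo3, a general stress and survival regulator, averaged 91.3 ± 1.57 CPM in R219S at day 1, against 121 ± 3.19 CPM in EV (SD, n = 3 each), a log2 fold change of -0.41 ± 0.06 (adjusted p = 1.0e-07). R219S was also 0.49 ± 0.06 below WT in Foxo3 (adjusted p = 1.9e-09). The R219S libraries of Foxo3 already lay below those of WT at day 0. Foxo4 averaged 67.6 ± 1.75 CPM in WT at day 1, against 54.3 ± 1.89 CPM in EV, a rise of 0.32 (adjusted p = 2.0e-06), and at day 11 it was lower in WT by 0.24 (0.00024). Foxo1, the main insulin-regulated member, was lower in FE255del at day 11 by 0.19 (adjusted p = 0.0051), with a change since day 0 beside that of EV of -0.08 (0.59), and in EV it rose by 0.50 between day 0 and day 11 (3.5e-09).

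FOXO target genes were described as a list of 27, of which 23 were tested. At day 1, 14 were higher and 5 lower in WT, 10 and 8 in FE255del and 8 and 9 in R219S. The shares of all genes called in either direction were 60.5%, 53.2% and 48.5%. The target counts depended on scaling by total counts, which gave 16 and 2, 11 and 5, and 11 and 7. Sesn1, a stress-response gene, averaged 86.7 ± 1.32 CPM in WT, 56.8 ± 1.97 CPM in FE255del and 52.8 ± 2.77 CPM in R219S, against 31.2 ± 0.64 CPM in EV (SD, n = 3 each). It rose by 1.48 ± 0.04, 0.86 ± 0.04 and 0.76 ± 0.04. Of 19 regulators of FOXO proteins 17 were tested. Beside the same all-gene shares, 3 were higher and 12 lower in WT, 2 and 11 in FE255del and 2 and 4 in R219S. The R219S counts were 4 and 3 under each of 2 other scalings. Sgk1, a kinase that phosphorylates FOXO proteins, fell by 1.67 ± 0.08, 1.62 ± 0.08 and 0.96 ± 0.08.

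Among the FOXP genes, which act as repressors in lung, gut and brain, Foxp4 split the constructs at day 1. It averaged 132 ± 4.02 CPM in WT, 180.0 ± 9.30 CPM in FE255del and 89.4 ± 3.92 CPM in R219S, against 108 ± 1.61 CPM in EV (SD, n = 3 each). WT and FE255del were higher than EV by 0.28 ± 0.05 (adjusted p = 4.7e-06) and 0.73 ± 0.05 (4.7e-15), and R219S was lower by 0.28 ± 0.05 (1.0e-05). The R219S change of Foxp4 since day 0, beside that of EV, lost its call under total-count scaling (-0.15, adjusted p = 0.11). Foxp1 averaged 132.5 ± 3.75 CPM in R219S, against 179 ± 3.02 CPM in EV, a log2 fold change of -0.43 ± 0.04 (adjusted p = 3.8e-11). Its values were -0.08 in WT and -0.02 in FE255del, neither past the threshold. Foxp2, known from brain and lung, was counted only in WT and FE255del apart from 2 counts in EV at day 1. At day 1 WT held 66 counts against those 2, a ratio of 28.5 (95% exact interval 7.57 to 239.9; adjusted p = 0.00018), and FE255del held 14 (0.057). At day 11 WT held 30 and FE255del 36 against 0 in EV, at least 9.54-fold and 11.4-fold higher (adjusted p = 0.00078 and 0.00043), with 0 in R219S. Foxp2 reached the test only through the WT and FE255del groups where it was high. Foxp3, the regulatory T cell factor, had group means of at most 0.248 CPM.

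Foxk1 and Foxk2, nutrient-responsive repressors that recruit SIN3 complexes, differed from each other. Foxk1 averaged 83.3 ± 1.69 CPM in WT, 85.8 ± 2.12 CPM in FE255del and 87.1 ± 1.56 CPM in R219S at day 1, against 104 ± 1.31 CPM in EV (SD, n = 3 each). All 3 constructs were lower, by 0.32, 0.28 and 0.26 on the log2 scale (adjusted p = 2.1e-09, 5.9e-08 and 3.5e-07). At day 11 Foxk1 was higher in R219S by 0.22 ± 0.04 (adjusted p = 1.1e-05) and lower in FE255del by 0.14 ± 0.04 (0.0016). The changes since day 0 beside that of EV were 0.23 ± 0.05 in R219S (adjusted p = 0.00069) and -0.07 ± 0.05 in FE255del (0.41). Foxk2 fell in WT alone at day 1, averaging 102.4 ± 4.64 CPM against 126 ± 1.54 CPM in EV (-0.30, adjusted p = 2.7e-06). R219S exceeded WT in Foxk2 by 0.42 and FE255del exceeded it by 0.38. At day 0 Foxk2 averaged 119 ± 4.89 CPM in WT, 140.2 ± 1.44 CPM in FE255del and 149 ± 2.01 CPM in R219S, against 128 ± 6.77 CPM in EV, and R219S was higher than EV by 0.23 ± 0.05 (adjusted p = 0.0014). The WT change at day 1 since day 0, beside that of EV, was -0.21 ± 0.07 (adjusted p = 0.016). It lost its call under total-count scaling (-0.11, 0.19) and without EV replicate 2 or WT replicate 3 at day 0 or WT replicate 1 at day 1 (0.063 to 0.071). All 13 chromatin partners of FOXK and FOXP proteins were tested. At day 1, 3 were higher and 7 lower in WT, 3 and 6 in FE255del and 5 and 1 in R219S. Of all genes, 60.5%, 53.2% and 48.5% were called in either direction. Scaled by total counts the partner counts were 4 and 6, 5 and 2, and 6 and 1. Sin3b, a scaffold of SIN3 complexes, rose by 1.12 in WT and 1.13 in FE255del.

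The remaining members moved by small amounts or at few counts. Foxj2 averaged 33.0 ± 1.38 CPM in FE255del and 32.7 ± 1.11 CPM in R219S at day 1, against 40.1 ± 0.79 CPM in EV (SD, n = 3 each), which are falls of 0.28 and 0.29. At day 0 it was already lower by 0.22 and 0.21 (adjusted p = 0.0014 and 0.0022), and the day 1 changes since day 0, beside that of EV, did not pass (0.55 and 0.42). In WT at day 1 its value of -0.19 (adjusted p = 0.0016) became -0.06 (0.34) when libraries were scaled by total counts. Foxj3, a muscle and germ cell regulator, fell at day 1 by 0.35 in WT and 0.32 in FE255del. Foxn2 averaged 42.0 ± 0.73 CPM in FE255del and 31.1 ± 0.99 CPM in R219S at day 1, against 37.3 ± 2.14 CPM in EV, values of 0.17 (adjusted p = 0.0046) and -0.26 (4.8e-05). Foxn3, a checkpoint repressor, rose at day 1 by 0.35 in FE255del (adjusted p = 0.0013) and 0.56 in R219S (3.0e-06).

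Foxi1, the regulator of ionocytes and kidney intercalated cells, was counted at most 46 times in a group. At day 1 FE255del held 0 counts against 22 in EV, at least 7.73-fold lower (adjusted p = 0.00070), and at day 11 R219S held 4 against 46 (-3.43 ± 0.87, 0.0017). R219S had no count at day 0 either, against 4, 8 and 2 in the EV libraries. That day 0 call was lost without EV replicate 2 (adjusted p = 0.074) or R219S replicate 2 (0.059). WT was also called lower at day 11, a call lost without WT replicate 3 (0.056). No construct passed in its change of Foxi1 since day 0 beside that of EV. Of 16 ionocyte genes 10 were tested. At day 11, 5 were higher and 2 lower in WT, 3 and 1 in FE255del and 1 and 5 in R219S. Of all genes, 40.6%, 42.2% and 32.1% were called in either direction. Cftr, the chloride channel, averaged 0.469 ± 0.27 CPM in R219S at day 11, against 8.38 ± 2.11 CPM in EV (SD, n = 3 each), a fall of 4.16 ± 0.25. Atp6v1b1, a proton pump subunit, averaged 0.320 ± 0.13 CPM in R219S, against 4.21 ± 1.61 CPM in EV, a fall of 3.70 ± 0.27. Foxh1, a SMAD partner in the early embryo, had group means of at most 0.120 CPM and passed in none of the comparisons with EV. Of the untested members, Foxe1 had 32 counts, 8 of them in FE255del at day 1, 22 in FE255del at day 11 and 2 in EV at day 11. All 20 counts of Foxd1 were in FE255del at day 1. Foxn4, Foxd4, Foxl2, Foxr1 and Foxe3 had 19, 14, 2, 2 and 1 counts over all libraries.

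Set directly against WT at day 1, R219S differed in 20 of 26 forkhead genes, beside 59.6% of all genes, and FE255del in 16, beside 41.7%. R219S was higher in 8, beside 30.5% of all genes (Foxm1, Foxn1, Foxj3, Foxn3, Foxa2, Foxk2, Foxc1 and Foxo6) and lower in 12, beside 29.1% (Foxp4, Foxp2, Foxp1, Foxj1, Foxn2, Foxa1, Foxq1, Foxo4, Foxo1, Foxo3, Foxd2 and Foxl1). The family median of that comparison was -0.17, beside -0.01 over all genes. Variants were not tested against WT at day 0, where some of these gaps were already present. At day 0 all R219S libraries already lay above those of WT in Foxm1, Foxn1, Foxk2 and Foxo6. They already lay below those of WT in Foxa1, Foxq1, Foxo4, Foxo1, Foxo3 and Foxd2. In Foxj1 they lay above WT at day 0, and the other genes named overlapped or had no counts. At day 11 R219S differed from WT in 17 genes, beside 48.9%, and FE255del differed in 3, beside 17.7%. Of those 3, Foxj1 alone kept its call under every alternative, and the count was 1 without FE255del replicate 2.

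In EV no forkhead gene passed between day 0 and day 1 in edgeR's quasi-likelihood test, beside 1.43% of all genes. With no adjustment 1 gene had p under 0.05, and DESeq2 called 0. Between day 0 and day 11, 17 of 26 differed in EV, beside 47.6% of all genes. Foxj2, Foxp4, Foxp1, Foxj3, Foxq1, Foxo4, Foxo1, Foxc1 and Foxk1 rose, while Foxm1, Foxn1, Foxj1 and Foxk2 fell, all under every alternative tried. The largest rise was that of Foxq1, 0.67 ± 0.06, and the largest fall that of Foxn1, among the members that kept their call. The family median was 0.21, beside 0.00 over all genes. Counted as changes since day 0 beside that of EV, 12 genes passed at day 1 in WT (44% of all genes), 12 in FE255del (40.2%) and 11 in R219S (39.4%). At day 11, 9 passed in WT (21.4%), 7 in FE255del (20.5%) and 7 in R219S (27.1%).

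Of the other cell type lists, the 7 neuroendocrine markers summed to group means of at most 0.63 CPM. The 7 endothelial markers summed to 5.97 ± 0.44 CPM in WT, 8.75 ± 0.31 CPM in FE255del and 0.623 ± 0.12 CPM in R219S at day 1, against 1.32 ± 0.15 CPM in EV (SD, n = 3 each), with Emcn and Cldn5 at 0 in every group. Of 3 that were tested, 2 were higher in WT, 3 in FE255del and none in R219S, where 1 was lower, and at day 11, 3 were higher in WT and in FE255del. Of all genes, 60.5%, 53.2% and 48.5% were called in either direction at day 1. At day 11 the shares were 40.6% in WT and 42.2% in FE255del. The 11 immune markers summed to 64.5 ± 8.38 CPM in WT and 46.7 ± 3.84 CPM in FE255del at day 1, against 0.31 ± 0.11 CPM in EV (SD, n = 3 each). Csf1r, a macrophage receptor gene, made up 63.6 and 46.1 CPM of those sums, and Cd3g and Cd8a were at 0 in both. The rises of Csf1r and of the endothelial genes stood beside those of Foxj1 and Foxl1 in the same libraries, and their part in them was not tested.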

How the data were processed

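Expected counts per gene were deposited by the authors, 1 file per library. STAR 2.4.2a, featureCounts 1.4.3 and mm10 are named in the submitters' processing notes, with no roles; per the labels' protocols, libraries were made with a stranded mRNA kit from polyadenylated RNA. The annotation release and strand setting are not given in the sources used here. Of all values, 298311 were not whole (by at most 3.0e-09) and were rounded. Of values between 1 and 20, 69.7% were even, so read pairs may have been counted as 2, which a fit on halved counts addressed. Of 45232 IDs 44585 matched a symbol.

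All 36 libraries were fitted as 12 group means with edgeR 4.0.16 in R 4.3.3 (filterByExpr, 18176 genes; TMM factors 0.9376 to 1.076; robust quasi-likelihood; common biological coefficient of variation 0.06955), and 21 comparisons were adjusted each over all genes at 0.05. Standard errors follow from the F statistic. The test was checked on simulated counts. Exon lengths come from GENCODE M21 (GRCm38), start-site windows from RefSeq. A group of 3 libraries at 0 was bounded by 3 counts in all, and count ratios have 95% exact intervals for counting error only. Replicates differed in 20754 to 21922 genes a pair, so none was merged. Alternatives were RLE and total-count scaling, no filter, a stricter minimum (on average 2 CPM, with 6 libraries reaching 1 CPM), compared groups only, DESeq2 1.42.0, a replicate block, halved counts and each library left out; gene list counts under the other scalings were added after the data were seen. Members and lists were chosen with earlier results of these data known. Values per library are given for Foxa1, Foxa2, Foxa3 and members that passed with a log2 fold change of at least 1 and a group mean of at least 1 CPM; Foxp2 and Foxi1 were added after their values were seen. From each list, genes with the smallest p were named, with a few chosen after their values were seen. Some items are not reported here.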

Additional observations from a re-analysis of the deposited data

Results flagged for a closer look

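In 4 results R219S and WT passed in opposite directions against EV on the same day, and the direct comparison of R219S with WT passed as well. At day 1 Foxp4 was 0.56 lower in R219S than in WT on the log2 scale (-0.56 ± 0.05, adjusted p = 3.6e-12), with -0.28 in R219S and 0.28 in WT over EV. Foxq1 at day 1 differed by -1.16 ± 0.06 (adjusted p = 8.0e-19), with -0.39 in R219S and 0.77 in WT. At day 11 Foxj1 differed by -3.31 ± 0.14 (adjusted p = 1.4e-17), with -0.43 in R219S and 2.88 in WT. Foxk1 at day 11 differed by 0.31 ± 0.04 (adjusted p = 7.3e-09), with 0.22 in R219S and -0.09 in WT. The R219S value of Foxj1 over EV lost its call without EV replicate 1, EV replicate 3, R219S replicate 2 or R219S replicate 3. It was also lost with no filter on low counts (adjusted p = 0.064), with halved counts (0.055) and when EV and R219S at day 11 were fitted alone (0.24). The WT value of Foxk1 over EV lost its call without EV replicate 2 (adjusted p = 0.11), EV replicate 3 (0.10) or WT replicate 1 (0.32), under 2 other scalings (0.066 and 0.23), with no filter on low counts (0.16) and when EV and WT at day 11 were fitted alone (0.17). For Foxq1, R219S was already 0.19 lower than EV at day 0, and its change at day 1 since day 0 beside that of EV, -0.20 ± 0.08 (adjusted p = 0.040), lost its call under 15 alternatives, 8 of which each left out 1 library (EV replicate 1 or 2 or R219S replicate 2 or 3 at day 0, replicate 2 or 3 of EV or R219S at day 1; 0.050 to 0.16). For Foxp4, the R219S change at day 1 since day 0, beside that of EV, lost its call under total-count scaling (-0.15, adjusted p = 0.11). Comparisons with EV on 1 day share the EV libraries.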

How the results depend on the processing

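Of 240 forkhead calls over the 21 comparisons, 180 held under every alternative and 60 were lost under at least 1, 55 of them when 1 library was left out; no call reversed. Of 306 results that did not pass, 51 gained a call, and Foxp1 in FE255del at day 1 turned from -0.02 to 0.0835 (adjusted p = 0.039) under total-count scaling. Fitting only the compared groups gave 8 calls against EV at day 0 in WT (4 in the full fit) and 7 in FE255del (4), and at day 11, 12 in WT (19), 11 in FE255del (17) and 5 in R219S (8), with 1 for FE255del against WT (3). The stricter filter, which tests fewer genes, gave 12 in WT at day 11, 5 in R219S and 10 for R219S against WT (17), and halved counts gave 5 in R219S at day 11. Leaving out 1 library gave 2 to 4 calls in WT at day 0 (2 without EV replicate 2 or 3 or WT replicate 2 or 3), 3 to 7 in R219S at day 0 (3 without EV replicate 2) and 1 to 4 for FE255del against WT at day 11 (1 without FE255del replicate 2). At day 11 it gave 13 to 16 in WT and 13 to 15 in FE255del, below the full counts. For the counts other than fewer genes or samples, the cause was not tested.

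Replicate numbers are shared across groups, but in no comparison did all 3 same-numbered pairs correlate over 0.1, so the numbers were not taken to pair the samples. With a replicate block, 16 genes passed in WT, 16 in FE255del and 17 in R219S at day 1.

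Total-count scaling moved the median of all genes to 0.10 in WT at day 1 (-0.01 before) and to -0.10 for R219S against WT at day 11 (-0.01). The share of higher calls among all genes called then went to 60.77% in WT at day 1 (48.95%), 60.98% in FE255del (47.97%), 42.56% in R219S at day 11 (55.2%), 47.22% in R219S at day 0 (65.6%) and 36.71% for R219S against WT at day 11 (50.66%). For the changes at day 1 it went to 57.61% in WT (45.91%), 59.48% in FE255del (43.14%) and 54.92% in R219S (40.88%). Genes of under about 50 counts per group rest on few molecules.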
